A study of Mus musculus with 12 samples.

Results

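The 44 genes described here encode the enzymes and regulators that copy DNA in S phase. They were taken by name, with no cutoff on the counts, from a list of replication genes drawn up with earlier results of these data known. Counts of members set beside shares of all genes below are therefore a description and not an independent test. All 44 were found, each as 1 of the 48709 gene identifiers counted, and all 44 passed the filter on low counts in every comparison. They fall into 7 role groups. Licensing of replication origins or its control takes in 11 genes, among them Gmnn, whose product blocks licensing. Helicase activation takes in 7, and the checkpoint mediator gene Clspn was placed there. The polymerases, the sliding clamp and its loader hold 11 genes. A further 4 join or repair the new strands, 5 supply nucleotides, 3 rebuild chromatin behind the fork and 3 control entry into S phase.

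RNA was sequenced from cells of C57BL/6 mouse hypothalamus taken at embryonic day 18, dissociated, exposed to a virus at a multiplicity of infection of 10 and grown in suspension as neurospheres. Basic fibroblast growth factor (bFGF), a mitogen for neural progenitors, was present at 10 ng/ml from 24 h onward in all 4 groups, and the cells were sorted after one week. The mCherry sort used an adeno-associated virus meant to mark cells of the neuropeptide hypocretin (gene Hcrt), and the EGFP sort used a lentivirus meant to mark cells of melanin-concentrating hormone (gene Pmch). Each sort gave 3 libraries of reporter-positive cells and 3 of reporter-negative cells. The labels do not name the promoter that drives either reporter. They also do not say whether replicates were separate cultures, so p-values measure the spread between these libraries, which may be technical. The question addressed is how the sorted cells differ from the cells left behind, here for the replication genes alone.

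Replication runs in ordered steps. In G1 the origin recognition complex, CDC6 and CDT1 load rings of the MCM2-7 helicase onto DNA, and geminin later blocks CDT1 so that no origin fires again in the same cycle. CDC45 and the GINS complex then turn the loaded ring into an active helicase, polymerases and primase copy both strands, and the ring-shaped clamp PCNA, placed by replication factor C, holds the polymerases on the template. Many of these genes are transcribed together at the G1 to S boundary under E2F transcription factors, so that their mRNAs are widely used as a mark of cycling cells. In the fetal and perinatal brain the cycling cells are mainly radial glia and other progenitors, whereas neurons have left the cell cycle.

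The 12 libraries held 16.3 to 32.9 M reads (megareads) in genes, and the member genes together took 37349 to 99161 reads in a library, so counting error is small beside the spread between libraries for most members. Levels below are read counts scaled to a megaread in genes (CPM), scaled over all 12 libraries with the TMM method. Pmch stood at 16.3 to 17.8 CPM in EGFP-positive libraries and at 4.01 to 5.12 CPM in EGFP-negative ones. Hcrt was close to absent everywhere, at 0.0949 to 0.426 CPM in mCherry-positive and 0.0329 to 0.23 CPM in mCherry-negative libraries. The labelled cell type of the mCherry sort is therefore not borne out by a clear Hcrt signal, and these groups are named below by their reporter.

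Upstream sequences from RefSeq on mouse build GRCm38.p6 were searched for the E2F recognition words TTTCCCGC, TTTCGCGC, TTTGCCGC and TTTGGCGC on both strands, in windows from 250 bases before to 50 bases after a gene's start. A window was found for 34 of the 44 genes, and Gins1, Gins2, Gins4, Mcm4, Ccne2, Prim2, Gmnn, Pole, Exo1 and Rfc2 had none in the table. At least 1 word lay in the windows of 15 of the 34 genes (44.1%), against 2.6% of 27025 genes with a window, 24.3% of 37 further replication genes and 5% of 20 mitosis genes. The 250 bases upstream of 4 genes are shown 5′ to 3′ on the gene's strand. Mcm5 and Mcm6 are helicase genes with E2F words, and their mRNAs fell in mCherry-positive cells. Pola1 has a word as well but showed one of the smallest differences. Rrm2 has no such word and showed one of the largest. Capitals mark E2F words in Mcm5 (chr8:75109259-75109508, + strand, words starting 153 and 149 bases before the start and overlapping), Mcm6 (chr1:128359706-128359955, - strand, words at 110, 106 and 47 bases, the first 2 overlapping) and Pola1 (chrX:93632156-93632405, - strand, 1 word at 138 bases). In Rrm2 (chr12:24708004-24708253, + strand) they mark the word CCAAT, 50 bases before the start. CCAAT also lies in the other 3 sequences, in lower case there, at 77 and 22 bases in Mcm5, 57 and 14 in Mcm6 and 37 in Pola1.
Mcm5: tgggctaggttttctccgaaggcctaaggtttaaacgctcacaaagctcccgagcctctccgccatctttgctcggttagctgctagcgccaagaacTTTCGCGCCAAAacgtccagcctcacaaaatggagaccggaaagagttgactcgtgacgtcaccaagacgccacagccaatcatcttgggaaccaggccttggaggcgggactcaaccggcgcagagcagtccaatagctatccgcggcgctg
Mcm6: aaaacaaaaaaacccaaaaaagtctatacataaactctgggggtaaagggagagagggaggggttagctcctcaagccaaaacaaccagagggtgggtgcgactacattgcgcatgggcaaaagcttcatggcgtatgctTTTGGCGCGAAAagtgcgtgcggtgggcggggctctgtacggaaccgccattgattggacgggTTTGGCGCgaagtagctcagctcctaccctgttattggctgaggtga
Pola1: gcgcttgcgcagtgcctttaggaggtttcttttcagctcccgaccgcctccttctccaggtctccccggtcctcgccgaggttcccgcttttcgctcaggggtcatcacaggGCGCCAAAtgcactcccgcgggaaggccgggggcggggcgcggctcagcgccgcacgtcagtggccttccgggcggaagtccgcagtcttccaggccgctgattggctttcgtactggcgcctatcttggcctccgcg
Rrm2: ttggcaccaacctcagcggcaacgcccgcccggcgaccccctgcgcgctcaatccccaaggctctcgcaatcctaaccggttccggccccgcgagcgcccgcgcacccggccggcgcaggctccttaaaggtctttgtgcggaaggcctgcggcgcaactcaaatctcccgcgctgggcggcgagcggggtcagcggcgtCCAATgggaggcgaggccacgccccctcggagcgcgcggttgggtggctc
The 15 genes with an E2F word had a median mCherry log2 fold change of -1.10, and the 19 genes with a window and no word had one of -1.27. CCAAT, searched on both strands, was in 58.8% of the member windows and 41.1% of all genes. The mitotic word TTTGAA was in 4 of the 34 member windows (11.8%), against 20.2% of all genes and 15 of the 20 mitosis genes. A match is only a run of letters, and it was not tested whether a factor binds there.

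Summed over the 44 genes, the replication mRNA level was far lower in mCherry-positive cells than in the other 3 groups. The sum was 1531, 1473 and 1157 CPM in the mCherry-positive libraries and 2753, 3046 and 2970 CPM in the mCherry-negative libraries. In the EGFP sort it was 2808, 2874 and 2966 CPM in positive and 2942, 3016 and 2969 CPM in negative libraries. The mCherry-positive libraries were thus the 3 lowest of 12 and the other 9 lay close together. The group means were 1387 ± 201 CPM (SD, n = 3), 2923 ± 152, 2883 ± 79.2 and 2976 ± 37.8 CPM, in the same order. As a share of the mCherry-negative mean this was 47.5% for mCherry-positive, 98.6% for EGFP-positive and 102% for EGFP-negative cells. Without TMM scaling the mCherry-positive share was 48.4% and the EGFP-positive share 90.9%. The EGFP groups then did not overlap, at 2658 to 2734 CPM in positive and 3000.5 to 3073 CPM in negative libraries, so the closeness of the EGFP groups depends on the scaling. In a bulk sample, fewer replicating cells and less of these mRNAs per cell cannot be told apart.

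**Figure D1:**
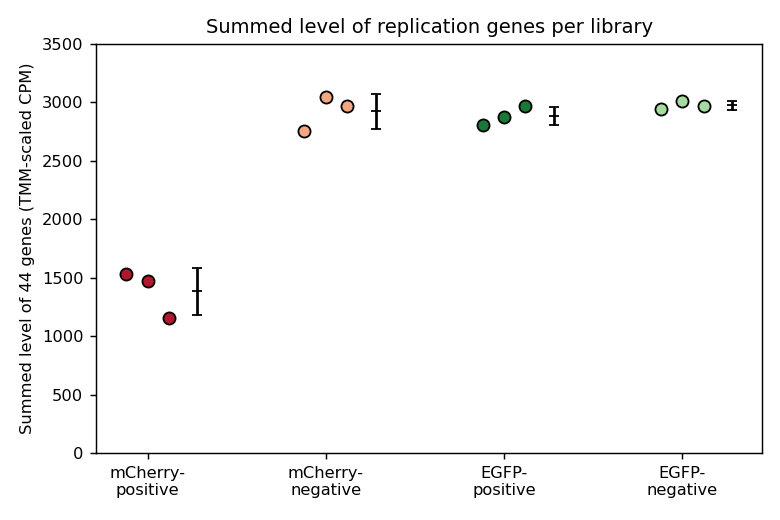
Summed level of the 44 replication genes in each of the 12 libraries, in TMM-scaled CPM, by group, with the group mean and SD beside the points. The 3 mCherry-positive libraries sit between 1157 and 1531 CPM, and the other 9 sit between 2753 and 3046 CPM.

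Gene by gene, all 44 had a lower fitted level in mCherry-positive than in mCherry-negative cells, with log2 fold changes from -1.75 (Exo1) to -0.21 (Gins4) and a median of -1.10, where the median over all 17369 genes tested was 0.02. At an adjusted p under 0.05, 19 of the 44 fell and 0 rose (edgeR quasi-likelihood test), while 0.656% of all genes tested fell and 0.541% rose. DESeq2 called 33 of the 44 lower and 3.4% of all genes lower. At an unadjusted p under 0.05, 38 of the 44 were lower, against 8.87% of all genes. In 41 of the 44 every mCherry-positive library lay below every mCherry-negative library, which held for 14% of all genes, and the exceptions were Orc1, Gins4 and Ccne2. The number of calls rests on having 3 libraries a side: it fell to 16 when mCherry-positive replicate 1 was left out, to 1 for mCherry-negative replicate 3, and to 0 for each of the other 4 libraries. Those 4 fits called 0 to 16 genes among all genes, and the members' median stayed between -1.16 and -1.02 in all 6.

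**Figure D2:**
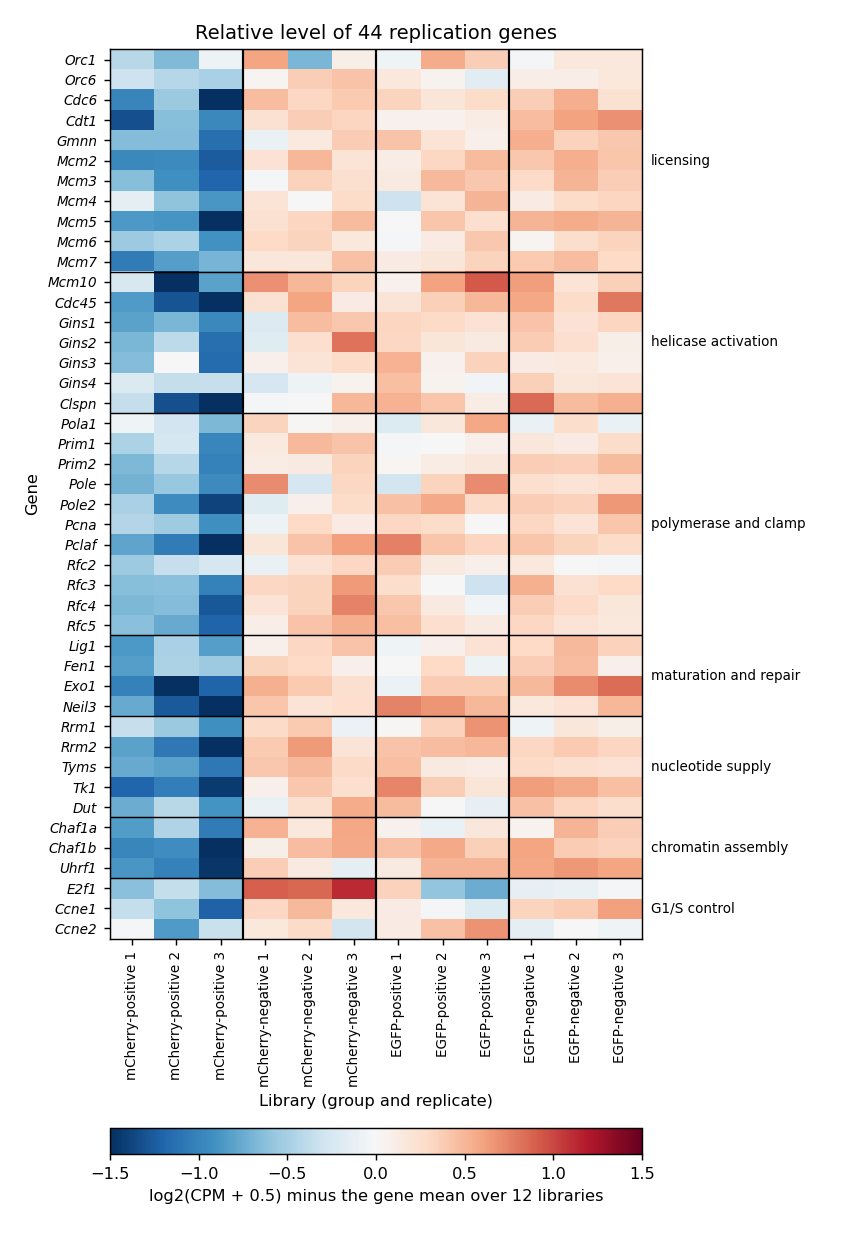
Level of each replication gene in each library, as log2(CPM + 0.5) minus the gene's mean over the 12 libraries, with genes in rows grouped by role and libraries in columns. The 3 mCherry-positive columns are blue (below the gene's mean) for nearly every gene, and replicate 3 of that group is the lowest of all 12 libraries for 33 of the 44.

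Among the 11 licensing genes 6 fell in mCherry-positive cells: Mcm2, Mcm3, Mcm5, Mcm6, Mcm7 and Cdt1. Mcm2 (chr6:88883474-88898780), a subunit of the helicase ring, stood at 57.4, 57.8 and 46.9 CPM in mCherry-positive and at 130.5, 159 and 129 CPM in mCherry-negative libraries. The groups did not overlap, and its log2 fold change was -1.36 ± 0.18 (SE, adjusted p = 0.0227). Mcm5 (chr8:75109569-75128439), a second ring subunit, whose upstream words are shown above, stood at 55.1, 54 and 34.3 CPM against 118, 125 and 140 CPM. Its log2 fold change was -1.41 ± 0.22 (adjusted p = 0.0336), and its lowest positive library was replicate 3. Mcm3 had 57, 46.9 and 38.7 CPM against 87.6, 113 and 105 CPM, a log2 fold change of -1.10 ± 0.20 (adjusted p = 0.0417). Mcm7 had 69.1, 80.9 and 88.5 CPM against 161, 161 and 194 CPM, a log2 fold change of -1.10 ± 0.18 (adjusted p = 0.0349), and here replicate 3 was the highest of the positive libraries. Because 8.7% of its exon bases are shared with genes on the other strand and 3.89% with genes on its own, and the strand setting of the counting is not known, some Mcm7 reads may belong to neighbours. The same holds for Ccne2 (17.4% of exon bases shared with Ints8), Rfc2 (15.1% with Lat2), Rfc4 (12.7% with Eif4a2), Orc1 (10.8% with Gm12743) and Rfc5 (10.7% with Wsb2), each on the other strand. Mcm6 was -0.89 ± 0.18 (adjusted p = 0.0497). The 6th ring subunit, Mcm4, had 80, 58.1 and 48.4 CPM against 102, 88.7 and 108 CPM and did not pass, at -0.67 ± 0.21 (adjusted p = 0.145). For the ring as a whole, 5 of 6 subunits fell.

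The loaders and the origin complex were less uniform. Cdt1 (chr8:122568015-122573554), the loading factor of the ring, stood at 8.32, 13.7 and 10.8 CPM in mCherry-positive and at 25.4, 28 and 27 CPM in mCherry-negative libraries, with a log2 fold change of -1.28 ± 0.26 (adjusted p = 0.0497). That call is at the edge of the threshold, and with DESeq2 size factors in place of TMM it was lost (adjusted p = 0.05002). Cdc6, its partner, was at 9.27, 12.7 and 6.02 CPM against 26.2, 23.6 and 24.9 CPM, a difference of similar size (-1.41 ± 0.30) with an adjusted p of 0.0598. Gmnn, which encodes the CDT1 inhibitor geminin, did not pass either (-0.97 ± 0.26, adjusted p = 0.0992). The 2 origin complex genes listed did not pass: Orc6 stood at 44.3 to 49.9 CPM against 63.9 to 83.5 CPM (-0.69 ± 0.18, adjusted p = 0.0983), whereas Orc1 stood at 2.46, 2 and 3.25 CPM against 5.46, 1.97 and 3.72 CPM with overlapping groups (-0.52 ± 0.51).

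Of the 7 genes in the helicase activation group, 1 fell, Cdc45. Cdc45 (chr16:18780447-18811987), which joins the MCM ring to make it active, stood at 14.8, 10.7 and 9.22 CPM in mCherry-positive and 31.8, 40.9 and 29.4 CPM in mCherry-negative libraries, a log2 fold change of -1.55 ± 0.27 (adjusted p = 0.0349). The GINS complex is the other helicase partner. Its 4 subunits did not pass the test: Gins1 had 7.71, 8.39 and 6.86 CPM against 11.9, 19.2 and 18.5 CPM (-1.10 ± 0.29, adjusted p = 0.0985), and Gins2 had 11.5, 14.2 and 8.32 CPM against 16.6, 22.6 and 33.5 CPM (-1.08 ± 0.32, adjusted p = 0.127). For Gins2, 67.3% of the exon bases overlap Gse1 on the other strand, so that its reads cannot be assigned with certainty. Gins3 was at -0.74 ± 0.34, and Gins4 was nearest to no difference, at 42.6 to 47 CPM against 46.1 to 56.8 CPM (-0.21 ± 0.18). Mcm10, which helps to open the helicase, had 11.1, 0.922 and 7.34 CPM in mCherry-positive libraries, the widest spread of any member there relative to its mean, against 16.7 to 21.5 CPM (-1.55 ± 0.65, adjusted p = 0.243). The checkpoint mediator gene Clspn was at -1.29 ± 0.45 (adjusted p = 0.178).

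Pclaf and 3 genes of the clamp loader, Rfc3, Rfc4 and Rfc5, fell among the 11 genes of the polymerases, clamp and loader. Pclaf (chr9:65890237-65903266), which encodes a small protein that binds PCNA, stood at 54.5, 45.5 and 24.8 CPM in mCherry-positive and at 107, 127 and 145 CPM in mCherry-negative libraries, a log2 fold change of -1.60 ± 0.28 (adjusted p = 0.0349). Rfc3 (chr5:151642756-151651242) stood at 33.1, 33.3 and 25.4 CPM against 64.6, 65.2 and 81.2 CPM (-1.19 ± 0.20, adjusted p = 0.0349). Rfc5 (chr5:117378103-117389047) stood at 38.6, 35.4 and 25.7 CPM against 64.3, 80.8 and 87.5 CPM (-1.21 ± 0.22, adjusted p = 0.0375). Rfc4 was at -1.29 ± 0.25 (adjusted p = 0.043), and Rfc2, the remaining loader subunit listed, was at 74 to 90.3 CPM against 100 to 133 CPM and did not pass (-0.52 ± 0.18, adjusted p = 0.173). Pcna itself, the clamp, had 77.6, 72.3 and 55.4 CPM against 99.7, 129 and 115 CPM. All positive libraries lay below all negative ones, yet at -0.73 ± 0.19 it did not pass (adjusted p = 0.0983). The catalytic and primase genes did not pass: Pola1 -0.48 ± 0.24, Prim1 -0.91 ± 0.23, Prim2 -0.89 ± 0.22, Pole -1.07 ± 0.29 and Pole2 -1.05 ± 0.39, with adjusted p from 0.0878 (Prim2) to 0.326 (Pola1).

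Exo1 and Lig1 fell among the 4 genes of strand maturation and repair. Exo1 (chr1:175880581-175913489), an exonuclease of mismatch repair, had the largest difference of all 44 genes, at 5.86, 3.57 and 5.07 CPM in mCherry-positive and 18.1, 16.3 and 14.7 CPM in mCherry-negative libraries (-1.75 ± 0.31, adjusted p = 0.0349). Lig1 (chr7:13277283-13311433), the ligase that seals lagging strand fragments, was at 33.6, 44 and 34.6 CPM against 64.8, 76.8 and 83.4 CPM (-0.99 ± 0.20, adjusted p = 0.0489). Neil3, a DNA glycosylase expressed in cycling cells, had 6.89, 4.7 and 3.5 CPM against 16, 13.8 and 14.2 CPM, and with -1.54 ± 0.33 it missed the threshold (adjusted p = 0.06). Fen1, the flap nuclease, could not be read well: 84.2% of its exon bases overlap Tmem258 and Gm10143 on the other strand, and it had only 0.861 to 1.23 CPM against 2.04 to 2.54 CPM.

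The nucleotide supply genes Rrm2, Tyms and Tk1 fell, 3 of 5. Rrm2 (chr12:24708241-24714146), the small subunit of ribonucleotide reductase, stood at 137, 114 and 70.3 CPM in mCherry-positive and at 315, 374 and 274 CPM in mCherry-negative libraries (-1.58 ± 0.26, adjusted p = 0.0349). Per kilobase of exon it was the most abundant of the 44 in mCherry-negative cells, at 116 CPM per kilobase, followed by Pcna at 47.7. Fen1 at 0.968 and Orc1 at 1.07 CPM per kilobase were the least abundant. Tyms (chr5:30058202-30073617), thymidylate synthase, was at 30.2, 29.3 and 24.2 CPM against 68, 72.2 and 62.9 CPM (-1.27 ± 0.19, adjusted p = 0.0311). Tk1 (chr11:117815526-117826092), the thymidine kinase of S phase, was at 10.3, 11.6 and 8.66 CPM against 25.5, 32.2 and 28.8 CPM (-1.5 ± 0.24, adjusted p = 0.0349). Rrm1, the large reductase subunit, had 145, 125 and 96.6 CPM against 224, 241 and 173 CPM and did not pass (-0.79 ± 0.21, adjusted p = 0.0982), nor did Dut (-0.93 ± 0.22, adjusted p = 0.0801). An annotated pseudogene of Tyms and 2 of Pcna exist, and how reads were shared with them is not known.

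Chaf1b and Uhrf1 fell among the 3 chromatin genes. Chaf1b (chr16:93883901-93906115), a subunit of the factor that deposits new histones, was at 14.2, 14.7 and 7.28 CPM in mCherry-positive and 30.3, 39.5 and 42.7 CPM in mCherry-negative libraries (-1.63 ± 0.30, adjusted p = 0.0423). Its partner Chaf1a was at 13.2, 17.4 and 11.3 CPM against 34.6, 26.9 and 35.9 CPM and just missed (-1.21 ± 0.25, adjusted p = 0.0528), with 52.5% of its exon bases overlapping Ubxn6 on the other strand. Uhrf1 (chr17:56303321-56323486), which carries DNA methylation over to the new strand, was at 38.1, 34.4 and 25.1 CPM against 90.4, 77.3 and 63.8 CPM (-1.24 ± 0.22, adjusted p = 0.0382). In the G1/S set E2f1 (chr2:154559407-154569892), a transcription factor of the S phase genes, fell from 39.7, 38.8 and 46.3 CPM in mCherry-negative to 13.4, 16.3 and 13.2 CPM in mCherry-positive libraries (-1.53 ± 0.21, adjusted p = 0.0256). Ccne1, a cyclin that drives S phase entry, was at 14.8, 12.4 and 7.96 CPM against 23.9, 26.9 and 21.4 CPM (-1.03 ± 0.28, adjusted p = 0.107). Ccne2 overlapped between groups, at 8.95 to 16.3 CPM against 13.5 to 20.2 CPM (-0.44 ± 0.30).

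**Figure D3:**
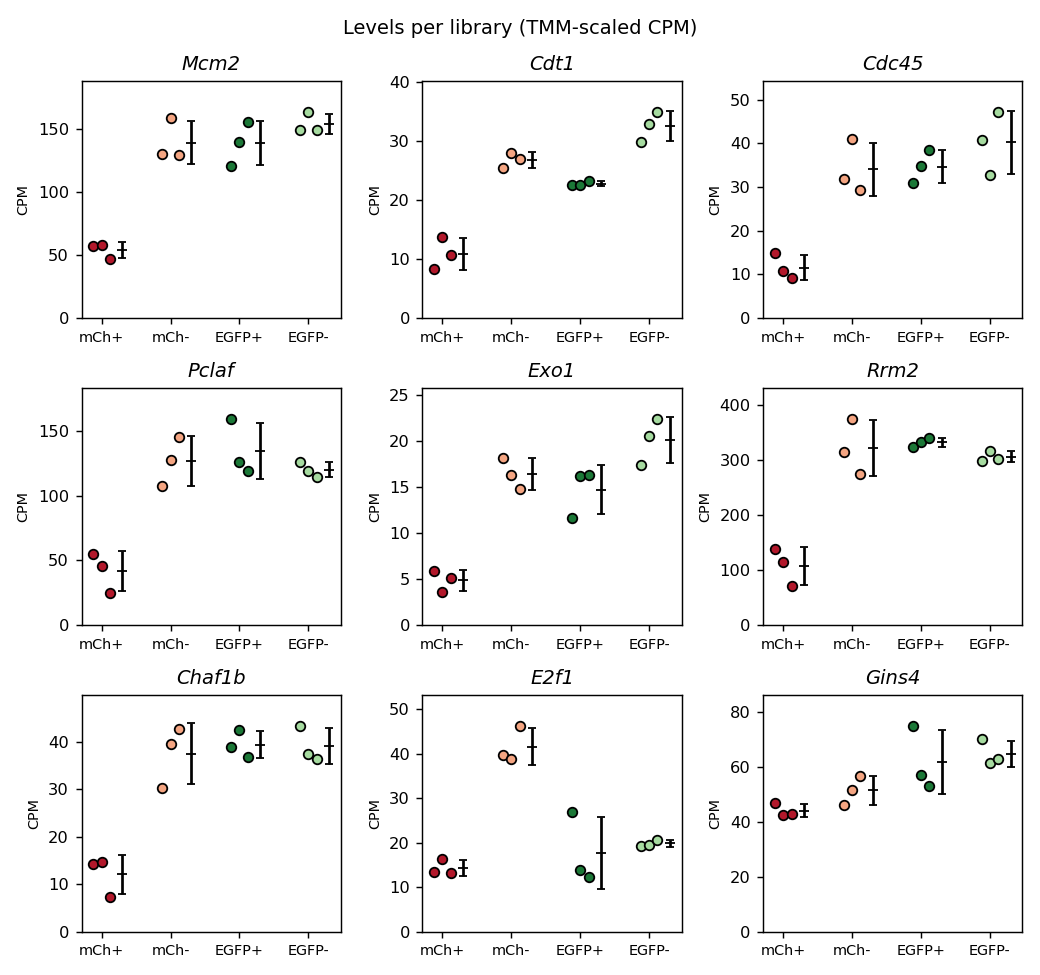
Levels in TMM-scaled CPM, by group, for 9 replication genes, 1 point a library, with the group mean and SD beside the points; mCh stands for mCherry. The mCherry-positive points lie below all others in 7 of the 9 panels, E2f1 is highest in mCherry-negative libraries, and Gins4 differs little between the mCherry groups.

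Over the 44 genes the size of the mCherry difference showed almost no trend with abundance (Pearson r of the log2 fold change with log2 mean CPM was -0.02 across 44 genes, which share libraries and are not independent). Summed by role, the mCherry-positive level was 39.8% of the mCherry-negative level for chromatin genes, 43.5% for nucleotide supply, 44.6% for maturation, 46.7% for G1/S control, 48.1% for licensing, 50.7% for polymerases and clamp and 55.4% for helicase activation. No test compared the roles with each other. Replicate 3 of the mCherry-positive group was the lowest of its 3 libraries for 34 of the 44 genes, and replicates 1 and 2 for 5 each. Replicate 3 was the lowest of all 12 libraries for 33, against 13.1% of all genes.

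In the EGFP sort the TMM-scaled levels of the same genes were close in positive and negative cells. Of the 44, 1 fell, Cdt1, and 0 rose, where 7.07% of 16326 genes fell and 8.99% rose. The median log2 fold change of the 44 was -0.12 against -0.01 over all genes, with a range from -0.53 (Cdt1) to 0.49 (Ccne2). At an unadjusted p under 0.05, 7 were lower, against 14.5% of all genes, and 1 was higher. DESeq2 called 2 lower, against 9.52% of all genes, and 1 higher. For the higher direction the shares of all genes by unadjusted p and by DESeq2 are not given here. The 3 positive libraries lay below the 3 negative ones for 8 of the 44 (16.9% of all genes) and above them for 3 (18.7% of all genes). Cdt1 was at 22.6, 22.5 and 23.3 CPM in EGFP-positive and 29.8, 32.9 and 34.9 CPM in EGFP-negative libraries (-0.53 ± 0.14, adjusted p = 0.0288). The groups did not overlap, but the call was lost without EGFP-positive replicate 2 or without any 1 of the EGFP-negative libraries (adjusted p up to 0.129). Without EGFP-positive replicate 1 the count rose to 5 lower and 2 higher. The share of all genes called in that fit is not given here, so this rise does not show a change particular to the members. Ccne1 was at 20.8, 18.9 and 16.5 CPM against 24.2, 25.1 and 29.6 CPM (-0.51 ± 0.16, adjusted p = 0.0599), and Ccne2 went the other way, at 17.9, 22.5 and 26.6 CPM against 15, 16.4 and 15.7 CPM (0.49 ± 0.18, adjusted p = 0.0935).

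The EGFP intervals hold for 1 gene at a time and with TMM scaling. The 95% interval of the EGFP log2 fold change lay between -1 and 1 for all 44 genes. The outermost bounds were -0.98 and 0.89. These are not joint intervals over the 44 genes, and they rest on a spread between libraries that may be technical. Counts without scaling, where the EGFP-positive sums were lower, were not fitted. A change of 1 on the log2 scale in some members is therefore not excluded. The median standard error was 0.15 in the EGFP sort and 0.24 in the mCherry sort. Rrm2, for example, was at 323, 332 and 339 CPM in EGFP-positive and 298, 317 and 301 CPM in EGFP-negative libraries (0.10 ± 0.09). Pclaf was at 159, 126 and 119 CPM against 126, 119 and 115 CPM (0.15 ± 0.13), and Rfc5 at 82.4, 71.3 and 65.9 CPM against 74.4, 69.2 and 67.2 CPM (0.04 ± 0.13). These 3 fell in the mCherry sort and had a positive sign in the EGFP sort. Across the 44 genes the log2 fold changes of the 2 sorts had a Pearson r of 0.29, as a description.

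**Figure D4:**
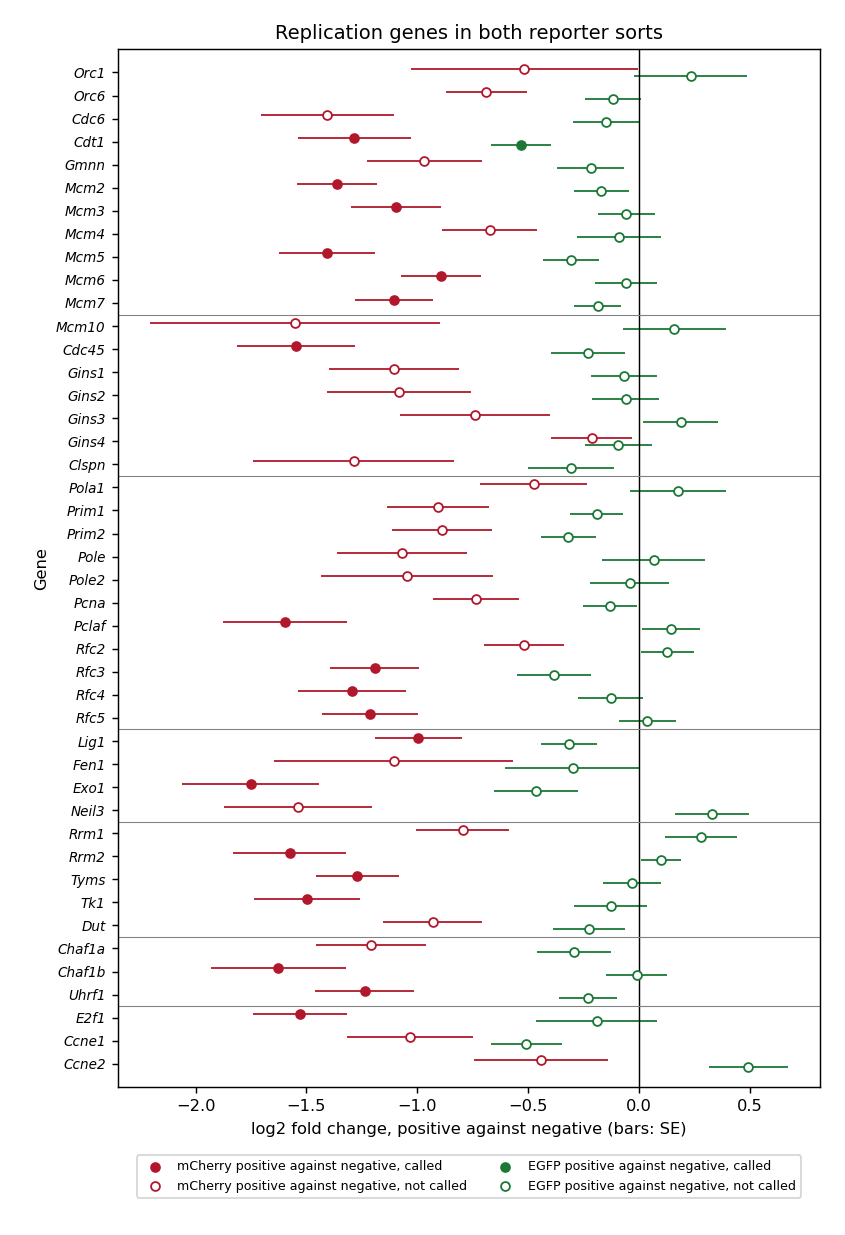
Log2 fold change of positive against negative cells for each replication gene in the mCherry sort and the EGFP sort, ordered by role. Bars show the SE and not the 95% interval. The mCherry values lie between -1.75 and -0.21 and the EGFP values between -0.53 and 0.49.

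The difference between both effects, mCherry minus EGFP, was tested in 1 fit of all 12 libraries, which takes a common spread for both sorts although replicates spread more widely in the mCherry sort (coefficient of variation 0.382) than in the EGFP sort (0.189). The difference was negative for all 44 genes, with a median of -1.02 against -0.03 over 18063 genes. It passed for 12 of the 44, all lower, where 0.559% of all genes passed in that direction, and 37 were lower at an unadjusted p under 0.05, against 6.74% of all genes. The 12 were Neil3 (-1.90 ± 0.34, adjusted p = 0.0202), Pclaf (-1.77 ± 0.33), Rrm2 (-1.70 ± 0.28), Chaf1b (-1.64 ± 0.34), Tk1 (-1.40 ± 0.27), Cdc45 (-1.34 ± 0.30), Rfc5 (-1.28 ± 0.25), Tyms (-1.27 ± 0.21), Mcm2 (-1.22 ± 0.21), Mcm5 (-1.13 ± 0.25), Mcm3 (-1.06 ± 0.24) and Mcm7 (-0.95 ± 0.20). They include members of every role group but G1/S control. Neil3 did not pass in either sort alone. DESeq2 called 20 of the 44 lower and 1.72% of all genes lower. Leaving out EGFP-positive replicate 2 or any EGFP-negative replicate left 0 calls, leaving out mCherry-negative replicate 2 left 4, and leaving out EGFP-positive replicate 3 left 7.

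In the EGFP sort itself none of these 12 genes was called. The groups overlapped for all but Rrm2 and Neil3, higher in EGFP-positive libraries, and Mcm5, lower there. Such separation held for 18.7% of all genes in the higher and 16.9% in the lower direction. Neil3 was the one whose sign differed most from the mCherry sort, at 20.3, 19.1 and 17.1 CPM in EGFP-positive and 13.4, 13.9 and 17.1 CPM in EGFP-negative libraries (0.33 ± 0.16, adjusted p = 0.214), with all positive libraries above the negative ones. Chaf1b was at 38.8, 42.4 and 36.8 CPM against 43.4, 37.5 and 36.4 CPM (-0.01 ± 0.14), and Tyms at 70.5, 56.6 and 55.7 CPM against 62.6, 61.5 and 60 CPM (-0.03 ± 0.13). Both overlapped between groups. Tk1 was at 40.5, 31.5 and 27.6 CPM against 37.7, 36.2 and 33.1 CPM (-0.13 ± 0.17), and Cdc45 at 30.8, 34.8 and 38.4 CPM against 40.7, 32.8 and 47.2 CPM (-0.23 ± 0.17). Of the ring subunits, Mcm2 was at 121, 140 and 156 CPM against 149, 164 and 150 CPM (-0.17 ± 0.12), Mcm3 at 98.3, 125 and 118 CPM against 109, 127 and 115 CPM (-0.06 ± 0.13) and Mcm7 at 156, 163 and 180 CPM against 188, 197 and 176 CPM (-0.19 ± 0.11). Mcm5 was the 1 ring subunit of the 4 without overlap, at 101, 134 and 120 CPM against 142, 147 and 143 CPM (-0.31 ± 0.13), and it did not pass (adjusted p = 0.133).

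Across both sorts the low levels were those of the mCherry-positive group. It had the lowest of the 4 group means for all 44 genes, and its 3 libraries lay below all 9 others for 38 of them, against 6.46% of all genes. The 6 others were Orc1, Mcm4, Gins4, Pola1, E2f1 and Ccne2. Set against EGFP-positive cells, 36 of the 44 were lower in mCherry-positive cells, where 7.67% of all genes were lower, with a median of -1.04 and a range from -1.91 (Neil3) to -0.30 (E2f1). DESeq2 called 40 of them lower, against 9.68% of all genes, and 42 had an unadjusted p under 0.05 in that direction, against 15.9%. For 41 of the 44 the libraries of both groups did not overlap, which held in that direction for 18.2% of all genes. Between the negative groups, mCherry-negative against EGFP-negative, 1 gene of 44 was higher, E2f1, and 0 were lower, where 2.67% of all genes were higher and 1.29% lower. The median there was -0.04, and 2 of the 44 had an unadjusted p under 0.05, against 16.8% of all genes. In these comparisons virus, reporter, sort and RNA input (0.8 ng in the mCherry sort and 2 ng in the EGFP sort) cannot be told apart.

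E2f1, one of the transcription factors upstream of this gene set, was ordered differently over the 4 groups. It was at 39.7, 38.8 and 46.3 CPM in mCherry-negative libraries, above all 9 others, at 19.3, 19.6 and 20.7 CPM in EGFP-negative libraries, and at 27, 13.9 and 12.4 CPM in EGFP-positive libraries. Against EGFP-negative cells the mCherry-negative level was higher by 1.07 ± 0.25 on the log2 scale (adjusted p = 0.0288), a call that was lost without any 1 of the 6 libraries. Against EGFP-positive cells the mCherry-positive level of E2f1 was close (-0.30 ± 0.25, adjusted p = 0.44).

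Related genes outside the 44 were listed by function. In the mCherry sort 0.656% of all genes were called lower and 0.541% higher, and 8.87% were lower at an unadjusted p under 0.05. Of 44 further replication genes 3 fell in mCherry-positive cells and 0 rose, with a median of -0.61: Asf1b, a histone chaperone (-1.62 ± 0.29), Wdhd1, which couples polymerase alpha to the helicase (-1.21 ± 0.23), and Pold1, the catalytic subunit of polymerase delta (-1.08 ± 0.20). Pold1 was at 35.6 to 49.7 CPM against 78.6 to 90.8 CPM. Of 23 further G1/S regulators 0 passed, and 15 were lower at an unadjusted p under 0.05. The most abundant of them, the cyclin D2 gene Ccnd2 and its kinase gene Cdk4, were at -1.13 ± 0.23 (adjusted p = 0.0529) and -0.94 ± 0.20 (adjusted p = 0.056). Of 6 CDK inhibitor genes tested 1 fell, Cdkn2c (-1.43 ± 0.22, adjusted p = 0.0316), at 11.6 to 15.3 CPM against 37.6 to 38.6 CPM. All 6 had an unadjusted p under 0.05, 4 lower and 2 higher, the latter being Cdkn2b (0.86 ± 0.31, adjusted p = 0.185) and Cdkn1a (0.43 ± 0.17, adjusted p = 0.233). The share of all genes higher at an unadjusted p under 0.05 is not given here. Of 22 mitosis genes 14 fell and 0 rose, with a median of -1.36, among them Cdca8 of the chromosome passenger complex (-1.68 ± 0.18), Ube2c (-1.64 ± 0.19) and Cdc20 (-1.54 ± 0.18) of the anaphase machinery and the mitotic kinase gene Cdk1 (-1.52 ± 0.20). In sum over each list, mCherry-positive cells had 47.5% of the mCherry-negative level for the 44 genes, 38.7% for mitosis, 59.7% for G1/S regulators, 70.1% for the further replication genes and 90.4% for CDK inhibitors.

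In the EGFP sort single genes of the related lists were called in both directions, where 7.07% of all genes fell and 8.99% rose. Of the 44 further replication genes 1 rose, Rpa1 of the single strand binding complex (0.66 ± 0.11), and 1 fell, the helicase gene Recql4 (-0.84 ± 0.21). Of the 23 G1/S regulators 3 fell, the cyclin genes Ccnd1 (-1.0 ± 0.14) and Ccnd3 (-0.40 ± 0.11) and the E2F partner gene Tfdp1 (-0.35 ± 0.10). Ccnd1 was at 44.2 to 58.9 CPM in EGFP-positive and 94 to 108 CPM in EGFP-negative libraries, without overlap. Of the 6 CDK inhibitors tested Cdkn2b (0.98 ± 0.17) and Cdkn1a (0.70 ± 0.14) rose and Cdkn1c fell (-1.26 ± 0.19). Among 22 mitosis genes 1 fell, Cdc20 (-0.40 ± 0.11). The difference between both effects passed for 10 of the 22 mitosis genes, for Pold1 and Slbp, for Ccnd2 and for Cdkn2c, all lower. Of all genes, 0.559% passed in that direction.

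Markers of the cell types that such cultures can hold were read beside these values. Radial glia and progenitor markers summed to 5856 to 8768 CPM in mCherry-positive and 6731 to 8674 CPM in mCherry-negative libraries, and 0 of 8 passed in edgeR. At an unadjusted p under 0.05, 3 of them were lower and 1 was higher, where 8.87% of all genes were lower. The share of all genes higher at that threshold is not given here. The counts of higher markers in this paragraph therefore do not show a change particular to a list. By adjusted p, 0.656% of all genes were called lower and 0.541% higher. Neuron markers summed to 1096 to 1938 CPM against 1525 to 2106 CPM, with 0 of 8 called and 2 lower at an unadjusted p under 0.05. Astrocyte markers summed to 6193 to 8802 CPM against 3113 to 4497 CPM, without overlap, and 1 of 7 rose (Gfap, 1.45), with 4 of 7 higher at an unadjusted p under 0.05. Oligodendrocyte precursor markers summed to 1480 to 2095 CPM against 2458 to 3000 CPM, and oligodendrocyte markers to 3469 to 5306 CPM against 2892 to 3912 CPM, with 0 of 7 called in either list. At an unadjusted p under 0.05, 3 precursor genes were lower and 1 oligodendrocyte gene was higher. Microglia markers ranged from 68.2 to 607 CPM in mCherry-positive and 25.1 to 115 CPM in mCherry-negative libraries, and pituitary markers from 7.26 to 5090 CPM and from 5.81 to 219 CPM. Of these, 0 of 7 microglia and 0 of 8 pituitary genes tested were called, with 4 of each higher at an unadjusted p under 0.05. Fibroblast and mural cell markers summed to 23.3 to 165 CPM against 103 to 318 CPM with 0 of 7 called (1 higher at an unadjusted p under 0.05), and endothelial markers were near 0, with Tek at 0 in all mCherry-positive and Cldn5 at 0 in all mCherry-negative libraries. Mitochondrial genes took 1.06% to 1.54% of gene reads in mCherry-positive and 0.805% to 0.953% in mCherry-negative libraries. In the EGFP sort their share was 0.766% to 0.872% in positive and 1.16% to 1.36% in negative libraries. The part of these lists and of the mitochondrial share in the fall of the replication genes was not tested.

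In the EGFP sort many markers of the same lists were called, where 7.07% of all genes fell and 8.99% rose. Radial glia markers summed to 11471 to 12046 CPM in EGFP-positive and 6274 to 6614 CPM in EGFP-negative libraries, and 5 of 8 rose. Astrocyte markers summed to 12365 to 14315 CPM against 6703 to 6789 CPM, where 6 of 7 rose and S100b fell (-0.66 ± 0.14, adjusted p = 0.0118). Neuron markers summed to 875 to 1220 CPM against 1367 to 1417 CPM, and 6 of 8 fell. Oligodendrocyte precursor markers summed to 1076 to 1152 CPM against 3205 to 3492 CPM, and all 7 fell, while oligodendrocyte markers summed to 1242 to 1284 CPM against 3820 to 3953 CPM, and 6 of 7 fell. Microglia markers summed to 7.61 to 8.56 CPM against 33.1 to 44.1 CPM, with 6 of the 7 tested lower and 1 higher. Fibroblast and mural cell markers summed to 64.2 to 97.6 CPM against 299.6 to 333 CPM (4 of 7 lower, 2 higher). The fibroblast genes Col1a1 (-3.20), Col3a1 (-3.17), Dcn (-3.79) and Lum (-4.10) fell. The mural cell genes went the other way: Pdgfrb (0.83) and Acta2 (1.55) rose, and Rgs5 (1.30, adjusted p = 0.109) was not called. The lower sum is thus that of the fibroblast genes. Pituitary markers summed to 40.3 to 68.2 CPM against 349.6 to 457 CPM (3 of 7 tested lower). Endothelial markers were near 0 in both groups, with 0 of 2 tested called (1 higher at an unadjusted p under 0.05, for which the share of all genes is not given here). Beside these changes the summed level of the 44 replication genes was 2883 ± 79.2 CPM (SD, n = 3) against 2976 ± 37.8 CPM with TMM scaling, and 2691 ± 38.9 CPM against 3034 ± 36.3 CPM without it. The part of these lists in the values of the replication genes was not tested.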

How the data were processed

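Gene-level RNA-seq read counts from 12 libraries (4 groups of 3) were analysed as deposited: whole-number counts per gene from the authors, with no normalization. Per the submitters' processing notes the reads went through cutadapt 1.8, STAR 2.5.2b and HTSeq 0.6.1 on GRCm38; the settings and the strand rule of the counting are not given in the sources used here. Each library's 5 entries that name no gene (31.4% to 38.2% of counted reads) were left out. Of 48709 identifiers, 48349 matched GENCODE M21, which gave symbols, positions and exon lengths.

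Each sort was fitted on its own 6 libraries in edgeR 4.0.16 (R 4.3.3): TMM factors, filterByExpr (minimum count 10, minimum total 15), quasi-likelihood test and Benjamini-Hochberg adjustment over all genes tested, with a call at an adjusted p under 0.05. For the difference of the effects and for comparisons across sorts, all 12 were fitted together. Each SE is the size of the log2 fold change over the square root of F. The steps were checked on simulated data. Alternatives were DESeq2 1.42.0, limma-voom (limma 3.58.1), DESeq2 size factors, other filters, a replicate block, all 12 libraries in 1 fit, and leaving out each library.

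Any of the 44 members may be named. Values per library were set for the 3 of smallest adjusted p per role group over both sorts, those called in 1 sort with the opposite sign in the other, and those called in the difference; those given for other members were chosen after their values were seen. Of each further list up to 4 called genes of smallest adjusted p are named, or the 2 most abundant where none was called. Other genes of these lists were named after their values were seen. Members and lists were chosen with earlier results of these data known. Between replicates, chi-square per degree of freedom was 6.2 to 88.5, above counting error. Precision is limited by 3 libraries a group.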

Additional observations from a re-analysis of the deposited data

Results flagged for a closer look

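The mCherry effect minus the EGFP effect was tested in 1 edgeR fit of all 12 libraries. It was called lower for 12 of the 44 replication genes, against 0.559% of 18063 genes tested. As given above, all of these calls were lost when certain single EGFP libraries were left out. On the log2 scale the differences were -1.90 for Neil3, -1.77 for Pclaf, -1.70 for Rrm2, -1.64 for Chaf1b, -1.40 for Tk1, -1.34 for Cdc45, -1.28 for Rfc5, -1.27 for Tyms, -1.22 for Mcm2, -1.13 for Mcm5, -1.06 for Mcm3 and -0.95 for Mcm7. In each the mCherry-positive cells were lower relative to their negative cells than the EGFP-positive cells were to theirs. Virus, RNA input and reporter differ between the sorts and cannot be told apart in this test.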

How the results depend on the processing

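In the mCherry sort the number of replication genes called was 19 in the fit of its own 6 libraries, against 0.656% of all genes lower. It rose to 33 with DESeq2, against 3.4% of all genes lower, and to 36 with all 12 libraries in 1 fit. Leaving out each library gave 0 to 16, with 34 to 38 at an unadjusted p under 0.05. Shares of all genes under the other settings are not given in this section, so these counts do not show a change particular to the members. In the EGFP sort the 1 call became 0 with all 12 libraries in 1 fit and 0 without a filter on low counts (edgeR, 2 and 7 at an unadjusted p under 0.05), 3 with DESeq2 and 0 to 7 when each library was left out, where the median ran from -0.136 to -0.0664. For the difference, DESeq2 called 20 lower, against 1.72% of all genes. Leaving out each library gave 0 to 17, and the stricter filter (at least 5 CPM in 3 libraries) moved the median to -0.91 over the 42 members left. Between the negative groups leaving out any 1 library gave 0 calls (edgeR, 1 to 2 at an unadjusted p under 0.05), and between the positive groups 27 to 36.

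Same-numbered positive and negative libraries correlated at 0.13, -0.02 and 0.02 in the mCherry sort and at 0.11, -0.005 and 0.03 in the EGFP sort. Differently numbered ones ran from -0.137 to 0.126 in the mCherry sort and from -0.101 to 0.0778 in the EGFP sort. So few correlations cannot decide whether the libraries were paired. With a replicate block the calls were 20 in the mCherry sort, 1 in the EGFP sort, 13 for the difference, 0 between the negative groups (edgeR, 2 at an unadjusted p under 0.05) and 32 between the positive groups.

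Over all alternatives no called member changed sign. In the mCherry sort 424 of 570 single-gene values kept their side of the threshold, 101 lost the call and 45 gained it. The cause was not tested. With 3 libraries a group, genes near 1 CPM such as Fen1 have wide intervals.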
